A study of Homo sapiens with 4 samples.

Results

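The comparison is between SKOV3 TET1 and SKOV3 control, the ovarian cancer cell line SKOV3 carrying a TET1 plasmid or the empty plasmid. These were 2 of the 4 samples of the series, with 1 sample in each group, and were chosen by their labels alone. The table of this line gives 26506 genes, and every gene was used. Of these, 13013 had a mean of at least 1 FPKM (fragments per kilobase of transcript, scaled to the total of mapped fragments) over the 2 samples and are called tested genes below.

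The study asked how TET1 reprograms the metabolism of ovarian cancer stem cells, and its RNA-seq compared TET1 with empty plasmid in SKOV3 and in a second ovarian cancer line, HeyC2. For each group 3 µg of pCMV6/TET1 or of empty pCMV6 plasmid was introduced with lipofectamine, which puts TET1 under the cytomegalovirus promoter, and both groups were kept in 400 µg/ml Geneticin. The SKOV3 control is labelled wild-type, and whether a group was a pool or 1 clone is not given in the sources used here. Since both groups share the line, the plasmid backbone and the drug, they differ by label in the TET1 insert only, and with 1 sample each a difference between them has no replicate check and cannot be told apart from a difference between 2 selected cultures.

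TET1 oxidises 5-methylcytosine to 5-hydroxymethylcytosine, a first step in the removal of methyl groups from DNA, and it is recruited mostly to regions rich in CpG dinucleotides. DNA methylation at a CpG-rich promoter usually goes with a silent gene. SKOV3 is known for amplified ERBB2, the receptor HER2, and for lacking functional p53.

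TET1 mRNA was at 0.43 FPKM in the control and 1.80 FPKM in SKOV3 TET1, which by the estimated depth are about 29 and 112 fragments. The ratio was 4.18, with a 95% interval of 2.77 to 6.56 that covers counting error only. TET1 lies on the plus strand of chromosome 10 from 70320094 to 70454244 (GRCh37), and its relative log2 change with a pseudocount of 1 was 0.78, below the 2-fold line because its level was near 1 FPKM.

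The deposited SKOV3 TET1 values had been multiplied by 1.35, a constant that makes GAPDH equal to the control. All values here are with that constant divided out. The median log2 change of the tested genes, log2((FPKM in SKOV3 TET1 + 1)/(FPKM in the control + 1)), was then 0.19, and this was subtracted from each gene to give its relative log2 change. A gene is called higher or lower when this value is at least 1 or at most -1, that is 2-fold relative to the median gene. Depth, estimated from the steps between the lowest FPKM values, was about 7190000 fragments in the control and 6590000 in SKOV3 TET1. Lineage markers were checked in both samples. ERBB2 was 1282 FPKM in the control against 1464 FPKM in SKOV3 TET1 (relative log2 change 0.00), and PAX8, the Müllerian lineage factor, was 74.6 FPKM in the control against 131 FPKM in SKOV3 TET1 (relative log2 change 0.61). Of 6 tested ovarian and Müllerian markers 1 was at least 2-fold higher and 2 lower, with values from -3.58 for MSLN to 1.06 for ESR1. Of 9 tested epithelial markers 3 were lower, KRT19, KRT7 and MUC1, and none was higher. Of 8 immune markers 3 were listed at 0 in both samples, and their summed level was 15.6 FPKM in the control and 23.0 FPKM in SKOV3 TET1, most of it CD68. Of 5 endothelial and 5 neural markers none was tested, and each list summed to 1.35 FPKM or less in either sample.

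Relative to the median gene, 1320 tested genes were at least 2-fold higher in SKOV3 TET1 (10.1%) and 845 were at least 2-fold lower (6.49%), while 10848 stayed within 2-fold. Counts of calls within each gene list below stand beside these shares of 10.1% and 6.49%. At 4-fold the counts were 235 higher and 115 lower. Of the 2-fold calls 61.0% were higher, and this share was 77.1% without subtracting the median, 81.4% with each library scaled to TPM, 76.4% with upper quartiles set equal and 93.7% with the values as deposited, but 50.1% with a pseudocount of 5 FPKM. Of the 1320 higher genes 505 (38.3%) were below 1 FPKM in the control, and of the 845 lower genes 116 (13.7%) were below 1 FPKM in SKOV3 TET1, so that these passed the filter of 1 FPKM on the mean through 1 sample alone. Both libraries correlated across 13773 genes with Pearson's r of 0.916 (Spearman's rho 0.910), beside 0.964 (rho 0.959) for the HeyC2 pair. These values are across genes, which are not independent replicates.

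**Figure D1:**
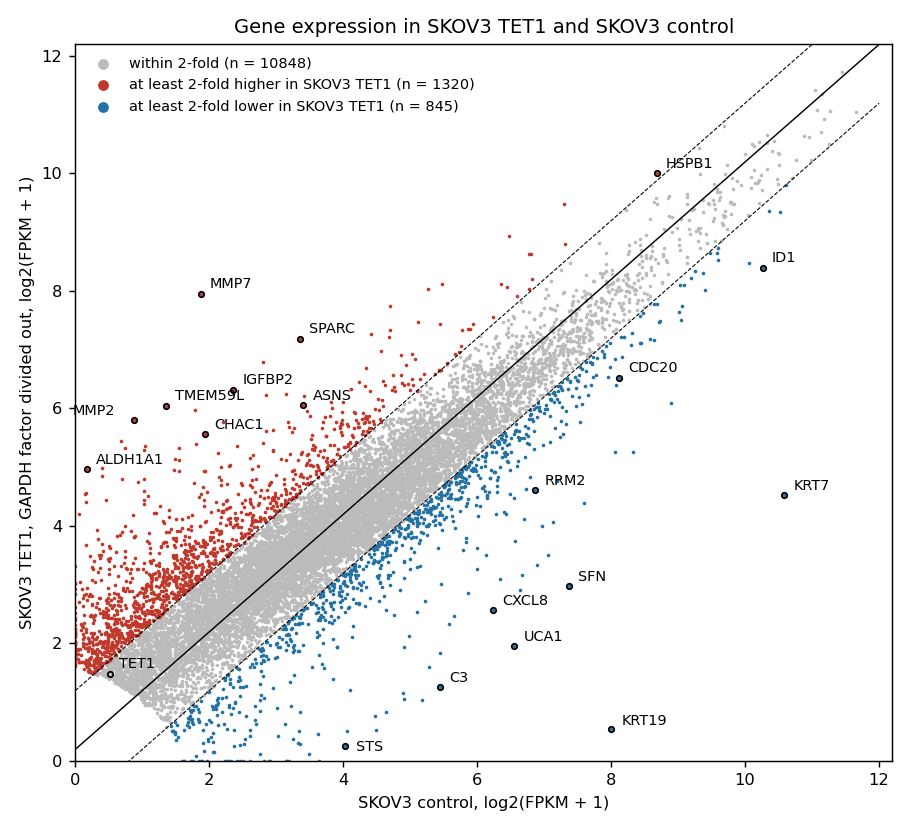
Level of each tested gene in the SKOV3 control (x axis) and in SKOV3 TET1 (y axis), both as log2(FPKM + 1), with 1 library per axis. The solid line is the median change and the dashed lines are 2-fold either side of it. MMP7 lies farthest above the line and KRT19 and KRT7 farthest below it.

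The change went with the level of the gene. In the tenth of tested genes with the lowest mean, with a median of 1.48 FPKM, 20.05% were higher and 4.92% were lower, and the median relative change was 0.36. In the tenth with the highest mean, with a median of 117 FPKM, 2.92% were higher and 11.4% were lower, and the median was -0.33. Abundant gene families are therefore given with their value after centring within 20 bins of expression where that turns their direction.

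The genes that were higher by the most in SKOV3 TET1, among those reaching 5 FPKM, were mostly near silent in the control. MMP7, matrilysin, an epithelial matrix metalloproteinase, was at 2.67 FPKM in the control and 246 FPKM in SKOV3 TET1, a relative log2 change of 5.88. MMP2, gelatinase A, was at 0.84 FPKM in the control and 54.5 FPKM in SKOV3 TET1, a relative log2 change of 4.72. ALDH1A1, a retinaldehyde dehydrogenase used as a marker of ovarian cancer stem cells, was at 0.13 FPKM in the control and 30.2 FPKM in SKOV3 TET1, a relative log2 change of 4.60. All 3 were at or below 2.67 FPKM in the control.

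TMEM59L, a paralog of the autophagy protein TMEM59, was 1.56 FPKM in the control against 64.9 FPKM in SKOV3 TET1 (relative log2 change 4.49). The adaptor gene SHC2 was 0.67 FPKM in the control against 39.3 FPKM in SKOV3 TET1 (relative log2 change 4.4). Genes of cell adhesion were the neural cell adhesion molecule NCAM2 (0.32 and 30.6 FPKM, relative log2 change 4.39), the protocadherin PCDH17 (0.11 and 22.2 FPKM, relative log2 change 4.20) and the cadherin CDH19 (0.12 and 20.1 FPKM, relative log2 change 4.04). Fibrillar collagen genes were COL1A1 (control 0.32, SKOV3 TET1 27.7 FPKM) and COL11A1 (control 0.04, SKOV3 TET1 17.3 FPKM). The forkhead factor FOXS1 was 0.12 FPKM in the control against 22.5 FPKM in SKOV3 TET1 (relative log2 change 4.20), the potassium channel gene KCNH3 was 1.07 FPKM in the control against 39.95 FPKM in SKOV3 TET1 (relative log2 change 4.11), the carbonic anhydrase-related CA11 was 1.05 FPKM in the control against 38.2 FPKM in SKOV3 TET1 (relative log2 change 4.06) and NREP was 2.45 FPKM in the control against 61.6 FPKM in SKOV3 TET1 (relative log2 change 3.99).

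The genes that were lower by the most included some of the most abundant transcripts of the control. KRT7, keratin 7, a type II keratin of simple epithelia, was at 1537 FPKM in the control and 21.96 FPKM in SKOV3 TET1, a relative log2 change of -6.26. KRT19, a type I keratin of the same epithelia, was at 255 FPKM in the control and 0.461 FPKM in SKOV3 TET1, a relative log2 change of -7.65. The other simple keratins did not share this: KRT8 was 559.9 FPKM in the control against 775 FPKM in SKOV3 TET1 (relative log2 change 0.28) and KRT18 193 FPKM in the control against 255 FPKM in SKOV3 TET1 (relative log2 change 0.21). KRT5, a basal keratin, was 15.6 FPKM in the control against 0.424 FPKM in SKOV3 TET1 (relative log2 change -3.73), and the hair keratin gene KRT86 went the other way, 0.37 FPKM in the control against 20.7 FPKM in SKOV3 TET1 (relative log2 change 3.79).

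UCA1, a long noncoding RNA first described in bladder cancer, was 93.2 FPKM in the control against 2.87 FPKM in SKOV3 TET1 (relative log2 change -4.80). SFN, stratifin or 14-3-3 sigma, was 164 FPKM in the control against 6.82 FPKM in SKOV3 TET1 (relative log2 change -4.59). C3, the central complement component, was 42.5 FPKM in the control against 1.39 FPKM in SKOV3 TET1 (relative log2 change -4.38). Relative to the median gene these 3 were 27.8-fold, 24.2-fold and 20.8-fold lower. The others of the 15 were LDOC1 (control 35.0, SKOV3 TET1 1.04 FPKM), DOK7 (control 21.4, SKOV3 TET1 0.431 FPKM), the microfibril gene MFAP5 (control 29.0, SKOV3 TET1 1.08 FPKM), the cytokine IL32 (control 24.0, SKOV3 TET1 0.773 FPKM), the steroid sulfatase STS (control 15.3, SKOV3 TET1 0.193 FPKM), the calcium buffer CALB1 (control 98.7, SKOV3 TET1 6.47 FPKM), LINC00458 (control 28.7, SKOV3 TET1 1.23 FPKM), the synuclein SNCG (control 21.3, SKOV3 TET1 0.691 FPKM), SPANXB1 (control 37.97, SKOV3 TET1 2.01 FPKM) and the neutrophil chemokine CXCL8 (control 74.3, SKOV3 TET1 4.89 FPKM). SPANXB1 has near-identical copies among the SPANX genes, so its reads may be split between them.

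**Figure D2:**
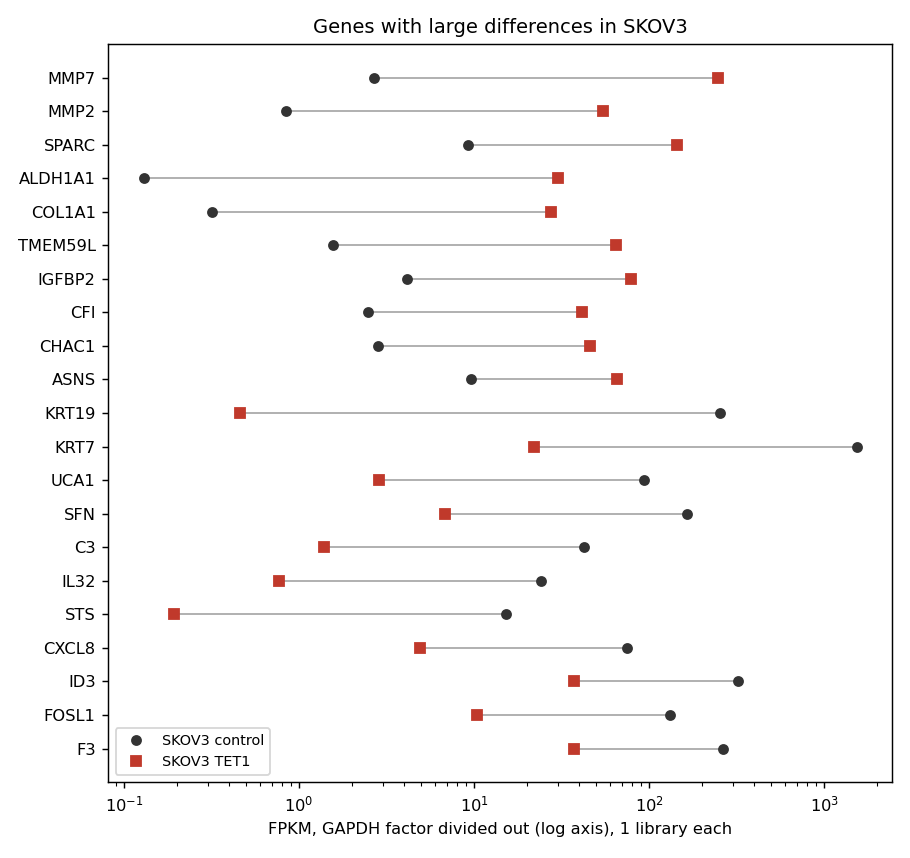
FPKM of 21 genes in the SKOV3 control (circles) and SKOV3 TET1 (squares) on a log axis, 1 library each. MMP7 through ASNS were higher in SKOV3 TET1, and KRT19 through F3 were lower.

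Promoter windows of 300 bases, from 250 before to 50 after the start of transcription, are shown for 2 genes that were higher and 2 that were lower, since CpG dinucleotides are the sites that TET1 acts on. They are RefSeq sequences on GRCh38.p14, written 5′ to 3′ along the gene, and capitals mark CG. ALDH1A1 (chr9:72953004-72953303, minus strand) held 7 CG and MMP7 (chr11:102530698-102530997, minus strand) held 4. SFN (chr1:26862899-26863198, plus strand) also held 7 and CXCL8 (chr4:73740319-73740618, plus strand) held 4. These windows were picked as examples, so their counts cannot say how promoter CpG content compares between higher and lower genes.
ALDH1A1: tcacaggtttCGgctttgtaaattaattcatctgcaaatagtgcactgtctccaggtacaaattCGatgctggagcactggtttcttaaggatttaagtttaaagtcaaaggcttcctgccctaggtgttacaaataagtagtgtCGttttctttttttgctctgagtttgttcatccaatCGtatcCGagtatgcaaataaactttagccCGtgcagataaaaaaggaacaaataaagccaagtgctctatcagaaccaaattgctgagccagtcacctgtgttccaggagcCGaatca
MMP7: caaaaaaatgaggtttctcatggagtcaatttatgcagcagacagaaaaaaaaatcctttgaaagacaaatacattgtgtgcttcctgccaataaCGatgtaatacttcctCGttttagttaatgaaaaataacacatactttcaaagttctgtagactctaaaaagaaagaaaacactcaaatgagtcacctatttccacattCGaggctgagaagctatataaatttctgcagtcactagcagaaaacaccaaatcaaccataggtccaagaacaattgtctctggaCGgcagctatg
SFN: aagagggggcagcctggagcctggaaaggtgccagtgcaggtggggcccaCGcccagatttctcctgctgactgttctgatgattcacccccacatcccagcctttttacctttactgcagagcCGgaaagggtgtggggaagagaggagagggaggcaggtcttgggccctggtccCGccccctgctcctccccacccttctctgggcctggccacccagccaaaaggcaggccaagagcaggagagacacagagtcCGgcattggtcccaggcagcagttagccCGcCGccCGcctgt
CXCL8: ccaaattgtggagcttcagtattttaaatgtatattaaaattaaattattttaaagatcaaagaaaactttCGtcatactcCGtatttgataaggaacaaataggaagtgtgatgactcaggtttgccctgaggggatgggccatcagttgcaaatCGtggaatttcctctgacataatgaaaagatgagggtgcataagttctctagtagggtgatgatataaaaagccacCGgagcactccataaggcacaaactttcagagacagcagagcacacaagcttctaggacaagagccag

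Genes of mitosis were lower as a group. Of 72 tested members, 0 were at least 2-fold higher and 48 (66.7%) at least 2-fold lower, with a median of -1.15, and all 72 lay below the median gene. Of all tested genes 6.49% were lower. CCNB1, the cyclin of mitotic entry, was 154 FPKM in the control against 46.5 FPKM in SKOV3 TET1 (relative log2 change -1.90). Its kinase CDK1 was 84.0 FPKM in the control against 51.1 FPKM in SKOV3 TET1 (relative log2 change -0.90). CDC20, the activator of the anaphase-promoting complex, was 277 FPKM in the control against 90.6 FPKM in SKOV3 TET1 (relative log2 change -1.79). The spindle kinases PLK1 (97.8 and 43.0 FPKM, relative log2 change -1.36) and AURKA (80.3 and 30.9 FPKM, relative log2 change -1.54) were past 2-fold, and AURKB (57.9 and 45.7 FPKM, relative log2 change -0.53) was not. MKI67, the gene of the proliferation antigen Ki-67, was 75.6 FPKM in the control against 29.1 FPKM in SKOV3 TET1 (relative log2 change -1.54), and FOXM1 and MYBL2, factors that drive this programme, had relative changes of -1.22 and -1.50. The members lowered least were CENPA, the centromeric histone, at -0.30, and CDC25B at -0.31.

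DNA replication and nucleotide supply went the same way. Of 55 tested members, 0 were at least 2-fold higher and 39 (70.9%) at least 2-fold lower, with a median of -1.28, beside 6.49% lower of all tested genes. RRM2, the small subunit of ribonucleotide reductase, had the lowest value, 116 FPKM in the control against 23.3 FPKM in SKOV3 TET1 (relative log2 change -2.46). The histone chaperone ASF1B (89.0 and 22.2 FPKM, relative log2 change -2.15), the primase partner POLA2 (27.7 and 6.47 FPKM, relative log2 change -2.13) and the initiation factor MCM10 (13.4 and 3.19 FPKM, relative log2 change -1.98) followed. TYMS, which makes thymidylate, was 169 FPKM in the control against 72.8 FPKM in SKOV3 TET1 (relative log2 change -1.40), TK1, which salvages thymidine, was 189 FPKM in the control against 66.4 FPKM in SKOV3 TET1 (relative log2 change -1.69) and the sliding clamp PCNA was 208 FPKM in the control against 107 FPKM in SKOV3 TET1 (relative log2 change -1.14). The exceptions were RPA3, of the single-strand binding complex, at 0.24, and DUT, the dUTPase, at 0.14.

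Repair by homologous recombination held fewer calls. Of 30 tested members, 0 were at least 2-fold higher and 9 at least 2-fold lower, with a median of -0.71. The Fanconi anaemia gene FANCI was 42.6 FPKM in the control against 17.9 FPKM in SKOV3 TET1 (relative log2 change -1.40) and the exonuclease gene EXO1 was 11.97 FPKM in the control against 5.02 FPKM in SKOV3 TET1 (relative log2 change -1.30), while BRCA1 was 21.2 FPKM in the control against 13.97 FPKM in SKOV3 TET1 (relative log2 change -0.76). Among regulators of G1, cyclin D1, CCND1, was 145 FPKM in the control against 26.2 FPKM in SKOV3 TET1 (relative log2 change -2.62), and the CDK4/6 inhibitor CDKN2C was 85.3 FPKM in the control against 17.5 FPKM in SKOV3 TET1 (relative log2 change -2.41). The inhibitors CDKN1A (10.3 and 19.8 FPKM, relative log2 change 0.68) and CDKN1C (4.17 and 10.5 FPKM, relative log2 change 0.97) were on the higher side of the median within 2-fold, as was the pocket protein gene RBL2 at 0.59. Lower levels of these genes in bulk RNA cannot be told apart from fewer cycling cells.

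The promoters of these lists share short elements, shown here for 2 genes of each list. Capitals mark the cell cycle homology element (TTTGAA or TTCGAA) in CDC20 and PLK1 and the E2F site (TTTGGCGC, TTTCGCGC, TTTCCCGC or TTTGCCGC) in E2F1 and MCM2, each searched on both strands in every listed start of a gene. The windows are chr1:43358731-43359030, plus strand, chr16:23678639-23678938, plus strand, chr20:33686336-33686635, minus strand and chr3:127598161-127598460, plus strand (RefSeq, GRCh38.p14).
CDC20: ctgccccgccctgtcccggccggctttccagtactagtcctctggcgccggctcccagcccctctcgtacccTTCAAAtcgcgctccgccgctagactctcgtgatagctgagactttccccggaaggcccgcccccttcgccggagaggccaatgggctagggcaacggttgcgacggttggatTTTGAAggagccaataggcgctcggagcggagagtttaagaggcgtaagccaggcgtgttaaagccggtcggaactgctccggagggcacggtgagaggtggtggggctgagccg
PLK1: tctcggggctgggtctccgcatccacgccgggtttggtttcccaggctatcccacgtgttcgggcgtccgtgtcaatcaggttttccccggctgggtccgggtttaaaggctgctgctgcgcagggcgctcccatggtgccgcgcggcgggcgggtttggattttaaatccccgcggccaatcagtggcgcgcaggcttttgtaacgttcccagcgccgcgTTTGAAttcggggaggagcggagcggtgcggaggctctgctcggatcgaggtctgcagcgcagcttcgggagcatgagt
E2F1: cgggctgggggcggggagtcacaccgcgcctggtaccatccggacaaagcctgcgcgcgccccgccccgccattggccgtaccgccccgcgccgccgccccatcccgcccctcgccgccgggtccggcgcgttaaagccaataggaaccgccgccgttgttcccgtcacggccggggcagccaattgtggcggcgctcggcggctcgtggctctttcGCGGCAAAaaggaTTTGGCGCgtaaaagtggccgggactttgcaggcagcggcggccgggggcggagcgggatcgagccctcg
MCM2: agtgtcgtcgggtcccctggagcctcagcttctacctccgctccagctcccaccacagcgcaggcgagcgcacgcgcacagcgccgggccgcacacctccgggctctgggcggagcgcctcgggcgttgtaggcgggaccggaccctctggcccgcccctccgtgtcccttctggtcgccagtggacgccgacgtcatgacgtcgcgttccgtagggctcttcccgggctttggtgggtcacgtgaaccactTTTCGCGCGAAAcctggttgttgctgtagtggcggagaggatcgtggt

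The cell cycle homology element stood in 47 of 63 mitosis genes with a listed promoter (74.6%), beside 19.5% of all 27305 genes with one. Mitosis genes that held it had a median relative log2 change of -1.08, and the 16 without it -1.21. The E2F site stood in 24 of 46 replication genes (52.2%), beside 3.99% of all genes, and the medians were -1.31 with and -1.28 without it. CCAAT was in 74.6% of mitosis genes beside 39.7% of all, with a median of -1.13 whether it was present or not. In these windows, then, genes with and without the element had nearly the same change.

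**Figure D3:**
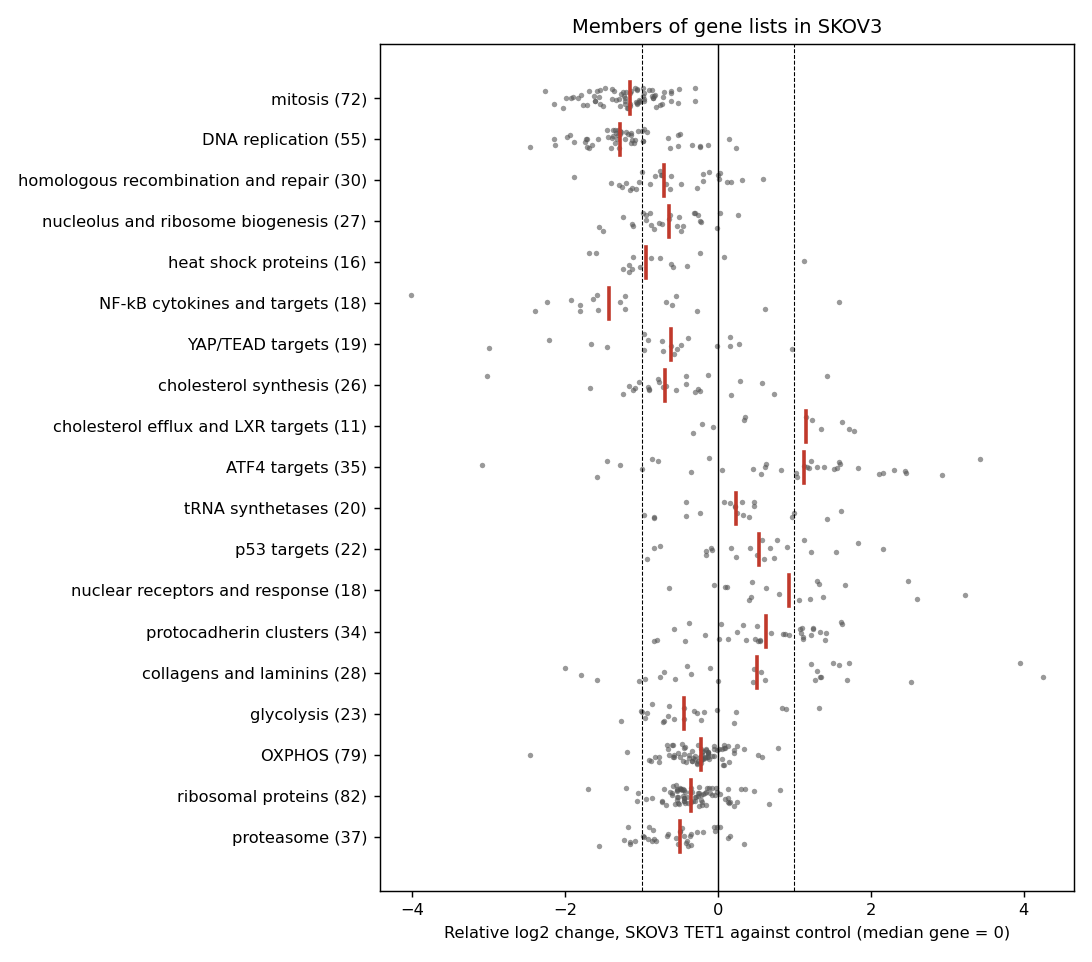
Relative log2 change of every tested member (points) of 19 gene lists, with the list's median (red bar) and the number of tested members in brackets. Solid and dashed lines mark the median gene and 2-fold. All mitosis genes lie left of the solid line, and ATF4 targets spread from -3.09 to 3.42.

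ATF4 is a transcription factor made when translation is slowed by amino acid shortage or stress in the endoplasmic reticulum, and its targets make amino acids, charge tRNAs and control cell death. Of 35 tested members, 20 (57.1%) were at least 2-fold higher and 4 (11.4%) at least 2-fold lower, with a median of 1.13. Over all tested genes these shares were 10.1% and 6.49%. Of the 20 higher genes 2 were below 1 FPKM in the control and passed the filter through SKOV3 TET1 alone. CHAC1, which degrades glutathione, had the highest value, 2.84 FPKM in the control against 46.0 FPKM in SKOV3 TET1 (relative log2 change 3.42). ASNS, asparagine synthetase, was 9.61 FPKM in the control against 65.4 FPKM in SKOV3 TET1 (relative log2 change 2.45). The pseudokinase TRIB3 was 13.1 FPKM in the control against 68.1 FPKM in SKOV3 TET1 (relative log2 change 2.10) and the mTORC1 inhibitor DDIT4 was 43.5 FPKM in the control against 276 FPKM in SKOV3 TET1 (relative log2 change 2.44). Serine synthesis genes were past 2-fold as well, with PHGDH (control 25.5, SKOV3 TET1 78.2 FPKM) and PSAT1 (control 112, SKOV3 TET1 294 FPKM). The stress sensor SESN2 was 3.78 FPKM in the control against 18.5 FPKM in SKOV3 TET1 (relative log2 change 1.84), and DDIT3, which encodes CHOP, was 34.4 FPKM in the control against 89.8 FPKM in SKOV3 TET1 (relative log2 change 1.17). ATF3, another stress factor of the list, did not share this and was 20.02 FPKM in the control against 24.0 FPKM in SKOV3 TET1 (relative log2 change 0.06).

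Not all targets went with the majority. The 4 that were at least 2-fold lower were CTH, the last enzyme of cysteine synthesis (16.2 and 1.30 FPKM, relative log2 change -3.09), SLC7A11, the cystine importer (34.4 and 12.5 FPKM, relative log2 change -1.58), SLC7A5, the leucine importer (424 and 177 FPKM, relative log2 change -1.45) and the factor ATF5 (34.0 and 15.5 FPKM, relative log2 change -1.28). Among 18 tested amino acid transporters, 2 were higher (11.1%, near the 10.1% of all tested genes) and passed the filter through SKOV3 TET1 alone, the glycine transporter SLC6A9 (0.36 and 3.46 FPKM, relative log2 change 1.52) and SLC43A1 (0.6 and 4.13 FPKM, relative log2 change 1.49), and 3 were lower. The tRNA synthetases, many of them ATF4 targets, had a median of 0.23 over 20 genes. The cysteinyl and alanyl enzymes CARS (12.4 and 45.4 FPKM, relative log2 change 1.60) and AARS (85.8 and 266 FPKM, relative log2 change 1.43) were past 2-fold, and VARS, the valyl enzyme, was lowest at -0.97. The alanine aminotransferase GPT2, of the ATF4 list, was 12.4 FPKM in the control against 45.0 FPKM in SKOV3 TET1 (relative log2 change 1.59), and PCK2, the mitochondrial phosphoenolpyruvate carboxykinase, which is in neither list, was 6.02 FPKM in the control against 41.4 FPKM in SKOV3 TET1 (relative log2 change 2.40).

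The element bound by ATF4 with C/EBP partners (TGATGNAA, both strands) is in capitals in the ASNS window (chr7:97872359-97872658, minus strand), where it begins 68 bases before the start, and in the CHAC1 window (chr15:40953221-40953520, plus strand), where it begins 209 bases before it (RefSeq, GRCh38.p14).
ASNS: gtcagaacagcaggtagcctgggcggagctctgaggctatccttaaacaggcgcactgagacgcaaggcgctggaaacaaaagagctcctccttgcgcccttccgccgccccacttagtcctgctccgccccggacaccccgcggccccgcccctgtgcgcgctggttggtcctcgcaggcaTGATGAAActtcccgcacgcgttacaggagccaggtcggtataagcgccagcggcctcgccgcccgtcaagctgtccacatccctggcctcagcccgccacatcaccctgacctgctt
CHAC1: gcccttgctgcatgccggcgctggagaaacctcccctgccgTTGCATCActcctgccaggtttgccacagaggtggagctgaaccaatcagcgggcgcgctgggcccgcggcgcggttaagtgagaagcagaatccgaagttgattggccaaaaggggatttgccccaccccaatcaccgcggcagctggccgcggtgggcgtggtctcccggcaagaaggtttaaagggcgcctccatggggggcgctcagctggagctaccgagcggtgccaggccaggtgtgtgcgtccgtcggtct
It stood in 10 of 29 ATF4 targets with a listed promoter (34.5%) and in 5 of 12 tRNA synthetase genes (41.7%), beside 4.46% of all genes. The 9 tested targets holding it had a median of 0.56 and the 18 without it 1.15.

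Cholesterol synthesis and cholesterol export had medians on opposite sides. Synthesis and uptake genes respond to SREBP2 when sterols are low, and export genes respond to the LXR receptors when oxysterols are high. Of 26 tested members, 1 was at least 2-fold higher and 7 at least 2-fold lower, with a median of -0.70 in the synthesis and uptake list. The acetyl-CoA acetyltransferase gene ACAT2 was 113 FPKM in the control against 54.2 FPKM in SKOV3 TET1 (relative log2 change -1.24) and the squalene synthase FDFT1 was 238 FPKM in the control against 121 FPKM in SKOV3 TET1 (relative log2 change -1.16). The 1 member past 2-fold in the other direction was the sterol reductase TM7SF2 (17.2 and 54.9 FPKM, relative log2 change 1.42).

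Of 11 tested members, 6 were at least 2-fold higher and 0 at least 2-fold lower, with a median of 1.15 in the export list. The exporter ABCA1 was 1.96 FPKM in the control against 9.37 FPKM in SKOV3 TET1 (relative log2 change 1.62). APOE, the apolipoprotein that takes up exported cholesterol, was 1.08 FPKM in the control against 6.76 FPKM in SKOV3 TET1 (relative log2 change 1.71). The ubiquitin ligase gene MYLIP was 4.61 FPKM in the control against 13.2 FPKM in SKOV3 TET1 (relative log2 change 1.15), and SREBF1, which drives fatty acid synthesis, was 19.2 FPKM in the control against 57.7 FPKM in SKOV3 TET1 (relative log2 change 1.34). The 3 members below the median gene were NPC1 (-0.33), LPCAT3 (-0.21) and NPC2 (-0.06). Fatty acid synthesis had no member past 2-fold higher and 2 lower among 20, with FASN (97.2 and 111 FPKM, relative log2 change -0.01) and the desaturase SCD (78.2 and 130.2 FPKM, relative log2 change 0.54) within 2-fold.

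Energy metabolism, the subject of the study, moved less than the cell cycle. Of 23 tested members, 1 was at least 2-fold higher and 2 at least 2-fold lower, with a median of -0.45 in the glycolysis list. The glucose transporter SLC2A1 was 107 FPKM in the control against 49.998 FPKM in SKOV3 TET1 (relative log2 change -1.27) and LDHA, lactate dehydrogenase A, was 1559.6 FPKM in the control against 886 FPKM in SKOV3 TET1 (relative log2 change -1.01). ALDOC, the brain aldolase, was the 1 gene past 2-fold higher (16.8 and 49.9 FPKM, relative log2 change 1.32). Of 79 tested members, 0 were at least 2-fold higher and 2 at least 2-fold lower, with a median of -0.22 in oxidative phosphorylation, and this median turned to 0.07 after centring within bins of expression and to 0.02 in TPM. Its 2 genes past 2-fold were COX7A1, at 3.81 FPKM in the control and listed at 0 in SKOV3 TET1, and ATP5G1 (197 and 98.4 FPKM, relative log2 change -1.19). The 3 genes that the study follows were within 2-fold: NDUFA13 (324 and 258 FPKM, relative log2 change -0.52), NDUFAF3 (65.8 and 75.8 FPKM, relative log2 change 0.01) and SCO2 (34.3 and 29.7 FPKM, relative log2 change -0.40). In the tricarboxylic acid cycle list, glutamine synthetase GLUL (1.52 and 5.59 FPKM, relative log2 change 1.19) was past 2-fold together with PCK2 and GPT2, and the citrate synthase gene CS (70.5 and 67.4 FPKM, relative log2 change -0.25) was not.

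Inflammatory genes under NF-kB were lower. Of 18 tested members, 1 was at least 2-fold higher and 12 (66.7%) at least 2-fold lower, with a median of -1.43, beside 6.49% lower of all tested genes. Of these 12 lower genes 5 (41.7%) were below 1 FPKM in SKOV3 TET1, beside 13.7% of all lower genes. Those 5 passed the filter through the control alone, so their direction adds nothing to the count. IL32, CXCL8 and CXCL1 were lower, the last 151 FPKM in the control against 44.8 FPKM in SKOV3 TET1 (relative log2 change -1.92). TNF was 4.50 FPKM in the control against 0.201 FPKM in SKOV3 TET1 (relative log2 change -2.39), the macrophage growth factor CSF1 was 56.3 FPKM in the control against 12.9 FPKM in SKOV3 TET1 (relative log2 change -2.24) and the superoxide dismutase SOD2 was 159.6 FPKM in the control against 60.6 FPKM in SKOV3 TET1 (relative log2 change -1.57). TNFAIP2 was the 1 member past 2-fold higher (32.5 and 114 FPKM, relative log2 change 1.59). The complement genes divided, with C3 lower as given above and the regulator CFI (2.48 and 41.1 FPKM, relative log2 change 3.405), together with CFB (13.5 and 49.2 FPKM, relative log2 change 1.60) and CLU (6.6 and 18.6 FPKM, relative log2 change 1.18), higher.

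Interferon-stimulated genes were mixed. Of 31 tested members, 6 were at least 2-fold higher and 3 at least 2-fold lower, with a median of 0.32. IFITM1, an antiviral membrane protein gene, had the highest value (6.19 and 73.4 FPKM, relative log2 change 3.18), followed by IRF9, part of the factor that turns these genes on (4.58 and 17.8 FPKM, relative log2 change 1.56), IFIT1 (1.1 and 5.99 FPKM, relative log2 change 1.54) and IFI6 (15.8 and 51.0 FPKM, relative log2 change 1.44). IFI27 (16.7 and 3.92 FPKM, relative log2 change -2.04) and OAS3 (13.1 and 5.24 FPKM, relative log2 change -1.37) were lower, and ISG15 was within 2-fold at 0.32. The MHC class I genes held no call among 15, and B2M, their light chain, was near the median gene (830.2 and 1010.5 FPKM, relative log2 change 0.09).

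Immediate early genes, which answer growth factor signals within minutes, leaned lower. Of 30 tested members, 1 was at least 2-fold higher and 7 at least 2-fold lower, with a median of -0.38. FOSL1, an AP-1 subunit, was 132 FPKM in the control against 10.4 FPKM in SKOV3 TET1 (relative log2 change -3.74). The phosphatases DUSP1 (476 and 66.7 FPKM, relative log2 change -3.01) and DUSP5 (103 and 16.4 FPKM, relative log2 change -2.76), which switch off MAP kinases, and the factor KLF6 (125 and 14.98 FPKM, relative log2 change -3.17) were also lower, whereas FOS, JUN and EGR1 stayed within 2-fold at -0.39, 0.08 and 0.56. The orphan receptor gene NR4A1 was the 1 higher member (7.46 and 22.1 FPKM, relative log2 change 1.26). Of 19 tested members, 0 were at least 2-fold higher and 4 at least 2-fold lower, with a median of -0.61 among YAP/TEAD targets. The coagulation initiator F3, tissue factor, was 266 FPKM in the control against 37.2 FPKM in SKOV3 TET1 (relative log2 change -2.997), and ANKRD1 was 16.5 FPKM in the control against 3.33 FPKM in SKOV3 TET1 (relative log2 change -2.21), while CTGF (-0.97) and CYR61 (-0.97) were just inside 2-fold. Of the receptors upstream, EGFR (45.8 and 22.4 FPKM, relative log2 change -1.19) and EPHA2 (184 and 53.4 FPKM, relative log2 change -1.95) were lower and EPHB2 (2.55 and 12.03 FPKM, relative log2 change 1.68) was higher.

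The 4 ID genes, targets of BMP signalling that block differentiation factors, were all lower. ID1 was 1232 FPKM in the control against 335 FPKM in SKOV3 TET1 (relative log2 change -2.07), ID3 was 321 FPKM in the control against 37.2 FPKM in SKOV3 TET1 (relative log2 change -3.26) and ID4 was 79.8 FPKM in the control against 7.57 FPKM in SKOV3 TET1 (relative log2 change -3.43). ID2 had the least change of these, -1.75. The whole TGF-beta and BMP list had 6 higher and 7 lower genes among 24, with the TGF-beta targets TGFBI 24.9 FPKM in the control against 212 FPKM in SKOV3 TET1 (relative log2 change 2.85), PMEPA1 5.64 FPKM in the control against 31.2 FPKM in SKOV3 TET1 (relative log2 change 2.09) and the ligand TGFB1 23.3 FPKM in the control against 87.6 FPKM in SKOV3 TET1 (relative log2 change 1.67) among them.

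In the Wnt list the secreted antagonist DKK1 was 49.6 FPKM in the control against 4.50 FPKM in SKOV3 TET1 (relative log2 change -3.39). The ligand WNT5A was 1.63 FPKM in the control against 18.2 FPKM in SKOV3 TET1 (relative log2 change 2.68), and AXIN2, a feedback target of beta-catenin, was 0.49 FPKM in the control against 4.58 FPKM in SKOV3 TET1 (relative log2 change 1.71). SFRP2, an antagonist named in the study, was listed at 0 in both. The Wnt list held 5 higher genes and 3 lower among 23 tested. Of its 5 higher genes 4, with AXIN2 among them, were below 1 FPKM in the control. These 4 passed the filter through SKOV3 TET1 alone, so their direction adds nothing to the count. Of its 3 lower genes 1 was below 1 FPKM in SKOV3 TET1. In the Notch list NOTCH3 (0.04 and 5.49 FPKM, relative log2 change 2.45), the glycosyltransferase MFNG (0.76 and 8.12 FPKM, relative log2 change 2.18) and the ligand JAG1 (19.9 and 53.1 FPKM, relative log2 change 1.18) were higher, and NOTCH1 and the target HES1 stayed at -0.16 and -0.06. This list held 5 higher genes (35.7%) and 1 lower (7.14%) among 14 tested. Of the 5 higher ones 3, with NOTCH3 and MFNG among them, were below 1 FPKM in the control and passed through SKOV3 TET1 alone. IGFBP2, IGFBP5 and IGFBP7, carriers of insulin-like growth factors, were higher, with values of 3.76, 2.85 and 1.99, and IGFBP1 was lower at -1.53.

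The matrix genes divided. Of 28 tested members, 12 (42.9%) were at least 2-fold higher and 4 (14.3%) at least 2-fold lower, with a median of 0.51. Over all tested genes these shares were 10.1% and 6.49%. Of the 12 higher genes 4 were below 1 FPKM in the control, COL1A1 and COL11A1 among them. Of the 4 lower genes 2 were below 1 FPKM in SKOV3 TET1, LAMA2 and COL17A1. These passed the filter through 1 sample alone, so their direction adds nothing to the counts. The 12 higher genes were 9 collagens and 3 laminin chains, led by COL1A1, COL11A1, COL27A1 (1.51 and 15.5 FPKM, relative log2 change 2.52) and COL4A5 (0.93 and 6.198 FPKM, relative log2 change 1.71). The 4 lower genes included LAMA2 (2.95 and 0.297 FPKM, relative log2 change -1.80), COL17A1 (2.77 and 0.439 FPKM, relative log2 change -1.58) and LAMA3 (21.5 and 11.5 FPKM, relative log2 change -1.04). Of these LAMA3 and COL17A1 belong to the hemidesmosome and the laminin it binds, which anchor epithelia to the basement membrane. SPARC, a collagen-binding matrix protein gene, was 9.27 FPKM in the control against 144 FPKM in SKOV3 TET1 (relative log2 change 3.63). The integrin genes ITGB3 (6.71 and 48.5 FPKM, relative log2 change 2.49), ITGA7 (1.1 and 12.4 FPKM, relative log2 change 2.49) and ITGB6 (1.74 and 12.8 FPKM, relative log2 change 2.14) were higher, and ITGB2, the leukocyte beta chain, was 9.27 FPKM in the control against 0.223 FPKM in SKOV3 TET1 (relative log2 change -3.26). MMP1 went against MMP7 and MMP2, at -2.11.

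Of 8 fibroblast markers 3 were tested, COL1A1, COL1A2 (0.13 and 2.12 FPKM, relative log2 change 1.27) and LUM (0.51 and 4.32 FPKM, relative log2 change 1.62). All 3 were below 1 FPKM in the control and passed the filter through SKOV3 TET1 alone, so their direction says nothing of the list. The summed level of the 8 was 1.11 FPKM in the control and 35.4 FPKM in SKOV3 TET1, of which COL1A1 made up 27.7. PDGFRB and FAP were listed at 0 in both samples, and DCN was listed at 0 in SKOV3 TET1. Vimentin, VIM, was 1223 FPKM in the control against 835 FPKM in SKOV3 TET1 (relative log2 change -0.74) and the EMT factor SNAI2 17.01 FPKM in the control against 8.44 FPKM in SKOV3 TET1 (relative log2 change -1.12). E-cadherin, CDH1, was 2.24 FPKM in the control against 6.30 FPKM in SKOV3 TET1 (relative log2 change 0.98) and the tight junction gene TJP3 1.97 FPKM in the control against 13.98 FPKM in SKOV3 TET1 (relative log2 change 2.14). These genes do not stand for their lists. EMT factors and mesenchymal genes held 4 higher (25%) and 1 lower (6.25%) among 16 tested, with a median of 0.24. Epithelial junction genes held 1 higher (4.55%) and 2 lower (9.09%) among 22 tested, with a median of -0.04. Over all tested genes the shares were 10.1% and 6.49%. Mesothelin, MSLN, was at 10.3 FPKM in the control and 0.0817 FPKM in SKOV3 TET1, and SOX17, a Müllerian factor, was 79.4 FPKM in the control against 42.2 FPKM in SKOV3 TET1 (relative log2 change -1.09).

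The clustered protocadherins, cell surface proteins whose promoter choice is known to be linked to CpG methylation, were low in both samples. Of 34 tested members, 13 were at least 2-fold higher and 0 at least 2-fold lower, with a median of 0.62. Of these 13 higher genes 9 were below 1 FPKM in the control and passed the filter through SKOV3 TET1 alone, so the count does not describe the clusters. The highest were PCDHB14 (1.2 and 6.75 FPKM, relative log2 change 1.62) and PCDHB7 (0.39 and 3.85 FPKM, relative log2 change 1.61). The C-type alpha genes PCDHAC1 (2.68 and 1.35 FPKM, relative log2 change -0.84) and PCDHAC2 (2.91 and 1.57 FPKM, relative log2 change -0.80) were on the lower side. Genes of the alpha and of the gamma cluster share their last exons, so that reads may be split among them. The whole list summed to 91.5 FPKM in the control and 178 FPKM in SKOV3 TET1.

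The DNA methylation enzymes did not move as 1 group. DNMT1, the maintenance methyltransferase, was 81.5 FPKM in the control against 39.2 FPKM in SKOV3 TET1 (relative log2 change -1.23), and its partner UHRF1, which is also a replication gene of the lists above, was 42.1 FPKM in the control against 15.6 FPKM in SKOV3 TET1 (relative log2 change -1.57). DNMT3B, a de novo methyltransferase, was 8.59 FPKM in the control against 49.4 FPKM in SKOV3 TET1 (relative log2 change 2.203). TET2 (2.78 and 2.23 FPKM, relative log2 change -0.42), TET3 (4.4 and 5.81 FPKM, relative log2 change 0.14) and the glycosylase TDG (16.1 and 12.3 FPKM, relative log2 change -0.56) were within 2-fold, as was EZH2 of Polycomb at -0.25.

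Genes often held silent by methylation gave different results by class. Of 15 tested members, 5 were at least 2-fold higher and 2 at least 2-fold lower, with a median of 0.78 among imprinted genes, led by SNRPN (7.41 and 34.2 FPKM, relative log2 change 1.87) and SNURF (8.23 and 36.3 FPKM, relative log2 change 1.82), which share 1 transcript and may share reads, and with PLAGL1 (13.4 and 5.01 FPKM, relative log2 change -1.45) lowest. The imprinted shares were 33.3% higher and 13.3% lower, beside 10.1% and 6.49% of all tested genes. Of the 5 higher imprinted genes 1 was below 1 FPKM in the control. Of 72 cancer-testis antigen genes matched, 63 were listed at 0 in both samples and 2 were tested, neither past 2-fold. H19 was at 0.45 FPKM in the control and listed at 0 in SKOV3 TET1, and IGF2 was listed at 0 in the control and at 1.07 FPKM in SKOV3 TET1. HOX genes held 2 calls among 20, near the 10.1% of all tested genes that were higher, HOXC9 (2.06 and 9.53 FPKM, relative log2 change 1.59) and HOXB9 (19.5 and 55.7 FPKM, relative log2 change 1.28), both higher.

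Nuclear receptors and their response genes held 9 genes at least 2-fold higher (50%) and 0 lower among 18, with a median of 0.93. Over all tested genes 10.1% were higher and 6.49% lower. Of the 9 higher genes 2, RARB and NR2F1, were below 1 FPKM in the control. Both passed the filter through SKOV3 TET1 alone, so their direction adds nothing to the count. The retinoic acid receptor RARB was 0.15 FPKM in the control against 3.14 FPKM in SKOV3 TET1 (relative log2 change 1.66). NR2F1, an orphan receptor, was 0.12 FPKM in the control against 6.16 FPKM in SKOV3 TET1 (relative log2 change 2.48), and the oestrogen receptor ESR1 was 6.16 FPKM in the control against 16.0 FPKM in SKOV3 TET1 (relative log2 change 1.06). CYP24A1, the vitamin D hydroxylase, was 1.12 FPKM in the control against 21.6 FPKM in SKOV3 TET1 (relative log2 change 3.23) and TSC22D3, a glucocorticoid target, was 9.65 FPKM in the control against 72.9 FPKM in SKOV3 TET1 (relative log2 change 2.60), although the glucocorticoid receptor NR3C1 itself was 13.7 FPKM in the control against 9.71 FPKM in SKOV3 TET1 (relative log2 change -0.64). Among stemness genes SOX4 (20.3 and 153 FPKM, relative log2 change 2.66) was higher, ALDH1A3 (13.5 and 1.62 FPKM, relative log2 change -2.66) was lower and POU5F1 (2.24 and 4.30 FPKM, relative log2 change 0.52) was within 2-fold, while SOX2 was listed at 0 in both samples.

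Heat shock proteins were lower. Of 16 tested members, 1 (6.25%) was at least 2-fold higher and 8 (50%) at least 2-fold lower, with a median of -0.95. Over all tested genes these shares were 10.1% and 6.49%. Of the 8 lower genes 1 was below 1 FPKM in SKOV3 TET1. The inducible HSPA1A was 181 FPKM in the control against 87.0 FPKM in SKOV3 TET1 (relative log2 change -1.24) and the constitutive HSPA8 582 FPKM in the control against 295 FPKM in SKOV3 TET1 (relative log2 change -1.17). HSPB1, which encodes HSP27, went the other way, 410.4 FPKM in the control against 1020.4 FPKM in SKOV3 TET1 (relative log2 change 1.12). The chaperones of the endoplasmic reticulum gave 1 call among 23, calreticulin CALR (769 and 366 FPKM, relative log2 change -1.26), with HSPA5 (156 and 252 FPKM, relative log2 change 0.50) and XBP1 (38.3 and 80.6 FPKM, relative log2 change 0.86) on the higher side.

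Abundant growth families were on the lower side too. Of 27 tested members, 0 were at least 2-fold higher and 5 at least 2-fold lower, with a median of -0.65 in ribosome biogenesis, with nucleolin NCL (412 and 217 FPKM, relative log2 change -1.11) and PPAN (40.5 and 15.1 FPKM, relative log2 change -1.56) past 2-fold. The proteasome gave 6 lower genes among 37 and a median of -0.50. The cytosolic ribosomal proteins had a median of -0.35, which became 0.03 after centring within bins of expression, so that their direction depends on the scaling.

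In the BCL2 family, which controls cell death at the mitochondrion, 3 of 17 tested genes were at least 2-fold higher and 1 lower, with a median of -0.16. The 3 encode death promoters of the BH3-only class, while BAD and PMAIP1 of the same class stayed within 2-fold at -0.74 and -0.46. The p53 and FOXO target BBC3, or PUMA, was 1.03 FPKM in the control against 9.33 FPKM in SKOV3 TET1 (relative log2 change 2.15), BMF was 0.55 FPKM in the control against 6.12 FPKM in SKOV3 TET1 (relative log2 change 2.01) and BCL2L11, or BIM, was 1.49 FPKM in the control against 5.69 FPKM in SKOV3 TET1 (relative log2 change 1.23). BCL2 and MCL1, which oppose them, stayed at -0.18 and 0.18, and BAK1 was 37.5 FPKM in the control against 20.3 FPKM in SKOV3 TET1 (relative log2 change -1.05). Of 22 tested members, 5 (22.7%) were at least 2-fold higher and 0 at least 2-fold lower, with a median of 0.54 among p53 targets, a list that shares SESN2 and GDF15 with the ATF4 targets. Over all tested genes 10.1% were higher and 6.49% lower. TXNIP, a FOXO and glucose-responsive gene, was 108 FPKM in the control against 395 FPKM in SKOV3 TET1 (relative log2 change 1.67) and KLHL24 2.30 FPKM in the control against 14.1 FPKM in SKOV3 TET1 (relative log2 change 2.01).

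Some genes were near silence in 1 sample only. There were 213 genes at or below 0.1 FPKM in the control and at 1 FPKM or more in SKOV3 TET1, and 84 the other way. A level of 1 FPKM can rest on few fragments, and at 5 FPKM these counts were 13 and 10. The highest of the first kind after COL11A1 were LRRC4B (listed at 0, then 8.99 FPKM), HMCN1 (control 0.05, SKOV3 TET1 7.25 FPKM), CACNG4 (listed at 0, then 7.18 FPKM) and PCP4 (listed at 0, then 7.01 FPKM). TMEM189-UBE2V1, also in this group, is a readthrough of 2 genes and may share their reads. Of the second kind the highest were CGB8 (chorionic gonadotropin beta, 11.5 FPKM, then listed at 0), MSLN, RBP4 (retinol binding protein, 8.17 FPKM, then listed at 0), SMOC2 (7.97 FPKM, then listed at 0) and CA9, the hypoxia-induced carbonic anhydrase (6.42 FPKM, then listed at 0). CGB8 has near-identical copies, and its count may be split among them.

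Position on the chromosome went with the change. Among 40 chromosome arms with at least 50 tested genes, the short arm of chromosome 17 had the highest median, 0.54 over 212 genes, of which 31 (14.6%) lay below the median gene. In its 4 stretches of equal gene number by position, each of 53 genes, the medians were 0.42, 0.67, 0.60 and 0.58, so the shift ran along the whole arm. The long arm of chromosome 4 had the lowest median, -0.42 over 305 genes, of which 75.1% lay below the median gene, and its 4 stretches had medians between -0.46 and -0.29. In HeyC2 the same arms had medians of -0.02 and -0.06. DNA copy number was not measured, and its part in these values was not tested. With each gene centred on its own arm, 1269 genes were higher and 715 lower.

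**Figure D4:**
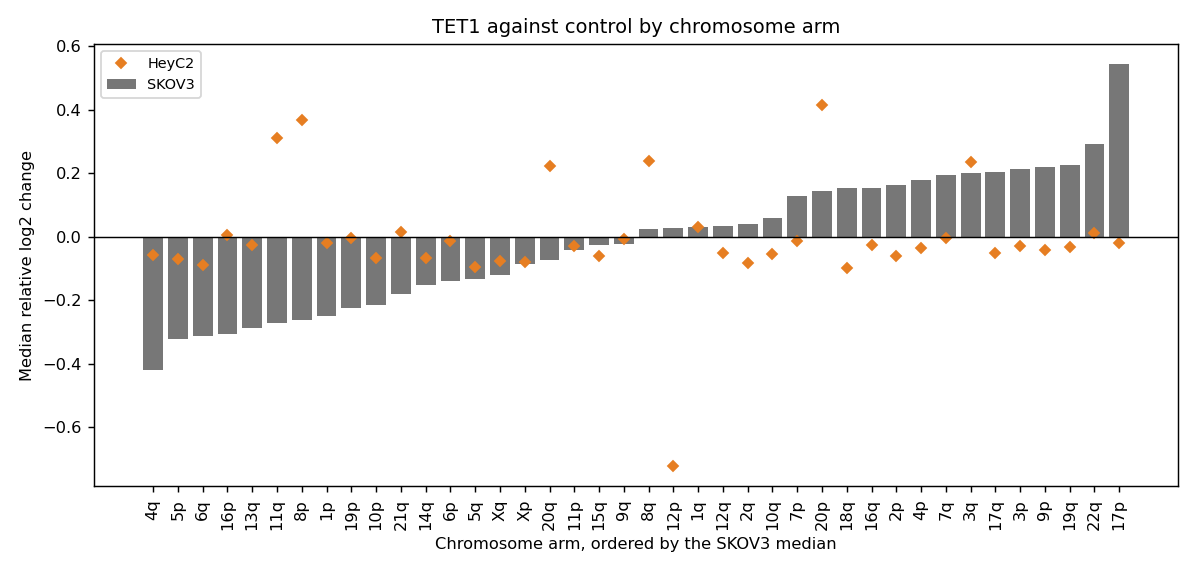
Median relative log2 change of the tested genes of each chromosome arm, ordered by SKOV3 (bars), with the HeyC2 medians (diamonds). The SKOV3 medians run from -0.42 on 4q to 0.54 on 17p, and HeyC2 has its lowest median, -0.72, on 12p.

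The genes called in either direction differed from the rest in structure. Transcripts of the higher genes had a median GC content of 54.8%, beside 49.7% for the lower genes and 48.4% for all tested genes, with a length known for 97.0% or more of each set. Median lengths were 3268, 2779 and 3482 bases. Their mean levels differed as well, with medians of 4.95, 19.7 and 11.8 FPKM. The check of promoter CpG content over these sets was void, because a promoter was at hand for 78.7% of the tested genes and 72.0% of the higher ones, under the 80% required. After centring within bins of GC content and length, 1283 genes were higher and 826 lower.

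HeyC2, with its own control, held fewer calls: 489 of 11894 tested genes were higher (4.11%) and 336 lower (2.82%). Of the 779 genes higher in SKOV3 that were also tested in HeyC2, 84 were higher there (10.8%) and 27 lower, and the 84 made up 21.99% of the 382 higher genes of HeyC2 that were tested in SKOV3. Of the 720 genes lower in SKOV3 and tested in HeyC2, 78 were lower there (10.8%) and 37 higher, the 78 being 28.8% of the 271 lower genes of HeyC2 that were tested in SKOV3. No test between the lines is possible with 1 library per group.

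The gene lists divided in 3 ways between the lines. Mitosis was lower in both, with a HeyC2 median of -1.26 and 47 of 72 genes at least 2-fold lower. DNA replication was lower in SKOV3, while in HeyC2 its median was 0.07 with 2 of 51 genes lower, and PCNA, at -1.14 in SKOV3, was at 0.70 in HeyC2. ATF4 targets had medians of opposite sign, 1.13 in SKOV3 and -0.74 in HeyC2. The NF-kB list, at -1.43 in SKOV3, was at 0.17 in HeyC2, and nuclear receptors, at 0.93, were at 0.02.

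**Figure D5:**
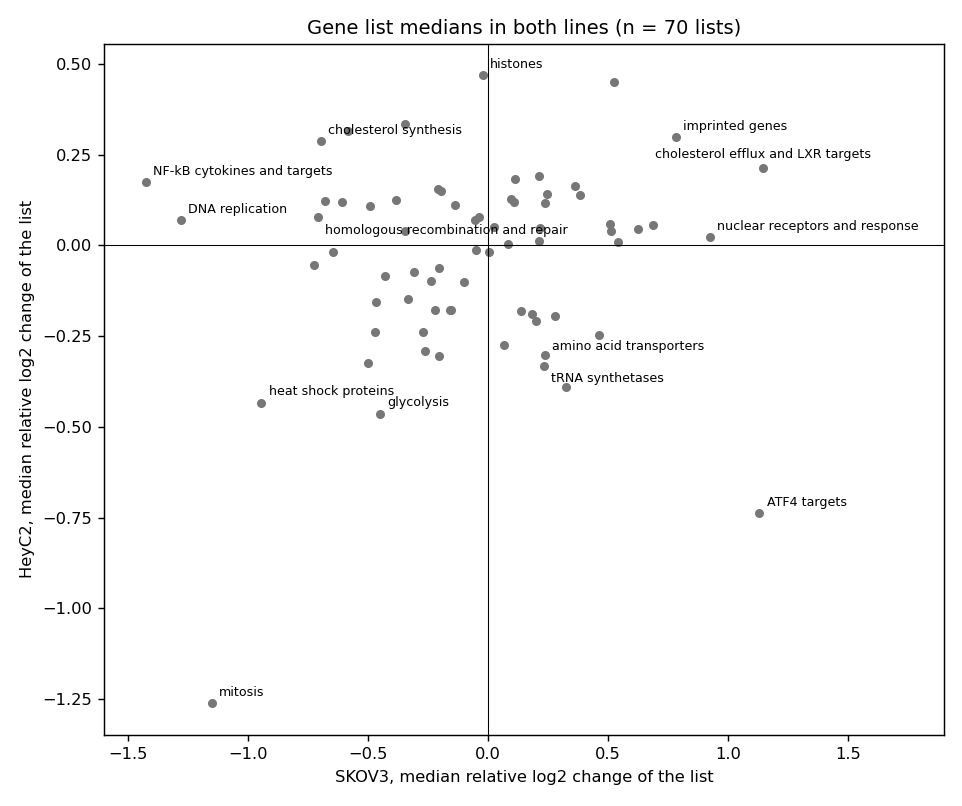
Median relative log2 change of 70 gene lists in SKOV3 (x axis) and HeyC2 (y axis), each against the control of its own line, 1 library per group. Mitosis lies low on both axes, and ATF4 targets lie at 1.13 and -0.74.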

How the data were processed

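RNA-seq of 4 libraries (SKOV3 and HeyC2, control and TET1, 1 each) was used. Per the labels, the authors sequenced TruSeq libraries as paired reads of 150 bases, aligned them to hg19 with Bowtie2 2.2.6 and computed FPKM with RSEM 1.2.17. The deposited FPKM of SKOV3 TET1 had been multiplied by 1.35 to equate GAPDH. This factor was recovered from the value steps, with 100% of 2637 distinct values of up to 40 FPKM on the grid, and was divided out. The log2 change used a pseudocount of 1 FPKM and genes with a mean of at least 1 FPKM, and the median of these genes was subtracted. The depth, estimated from the FPKM steps, was about 7190000 fragments in the control and 6590000 in SKOV3 TET1. Other scalings, pseudocounts, filters, folds and a correction for GC content and length were tried. With 1 library per group no test was run and no spread between replicates is known. Positions came from GENCODE on GRCh37 (90.2% of symbols matched) and promoters from RefSeq. The members and lists were chosen with earlier results of these data known. Named genes are TET1, genes from the study's text, the 15 highest and 15 lowest reaching 5 FPKM, preset key genes, the 4 highest and 4 lowest of each list, and the 10 largest switches from or to at most 0.1 FPKM, of which some are not reported here. The steps were tested on simulated data (Python 3.11.15, pandas 2.3.3, scipy 1.17.1).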

Additional observations from a re-analysis of the deposited data

Results flagged for a closer look

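Some results had opposite directions in SKOV3 and HeyC2, each against the control of its own line. The difference between the lines was not tested, since each group had 1 library. The median of the ATF4 targets was 1.13 in SKOV3 and -0.74 in HeyC2 on the relative log2 scale. Of 214 named genes tested in both lines, 17 were past 2-fold in opposite directions. Many of these genes were named for extreme values in SKOV3, so this count gives no rate of opposition between the lines. Among all 11134 genes tested in both lines, 27 were higher in SKOV3 and lower in HeyC2, and 37 the reverse. In the same direction, 84 were higher in both and 78 lower in both.

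Of these, 8 were higher in SKOV3 TET1 and lower in HeyC2 TET1, most of them ATF4 targets. The values in SKOV3 and HeyC2 were 2.45 and -2.28 for ASNS, 1.19 and -2.52 for PSAT1, 1.39 and -1.53 for PHGDH, 2.10 and -1.53 for TRIB3 and 1.17 and -1.62 for DDIT3. PCK2 was at 2.40 and -1.32, the TGF-beta target PMEPA1 at 2.09 and -1.89 and the interferon-induced OAS1 at 1.17 and -3.13.

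The others were lower in SKOV3 TET1 and higher in HeyC2 TET1. UCA1 was at -4.80 and 3.97, and tissue factor F3 at -2.997 and 3.27. KRT7 was at -6.26 and 1.895, DKK1 at -3.39 and 1.89 and ANKRD1 at -2.21 and 1.41. ID1 was at -2.07 and 2.40, and ID3 at -3.26 and 1.05. ADM, the vasodilator peptide adrenomedullin, was at -2.94 and 1.04, and CXCL1 at -1.92 and 1.01.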

How the results depend on the processing

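No setting turned the direction of any of the called values of named genes or of lists past 1.5-fold. The counts of higher and lower genes were 1320 and 845. They were 3700 and 249 as deposited, 1825 and 542 without centring, 2745 and 627 in TPM, 1797 and 556 with equal upper quartiles, 427 and 425 with a pseudocount of 5, 769 and 527 at a mean of at least 5 FPKM, 2691 and 2362 at 1.5-fold and 235 and 115 at 4-fold. They stayed within 1.5 times with a pseudocount of 0.1, no filter, centring in bins of expression, correction for GC content and length, and centring by chromosome arm, the last chosen after seeing the data.

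The centre of some lists moved. As deposited, the median of mitosis was -0.54, the median of DNA replication -0.68, the median of ATF4 targets 1.70, the median of tRNA synthetases 0.84, the median of cholesterol synthesis -0.087, the median of glycolysis 0.17, the median of OXPHOS 0.39 and the median of ribosomal proteins 0.27. Without centring, mitosis was at -0.96, DNA replication at -1.09, OXPHOS at -0.029 and ribosomal proteins at -0.16. In TPM these lists were at -0.91, -1.06, 0.021 and -0.10, with tRNA synthetases at 0.49. With equal upper quartiles they were at -0.97, -1.10, -0.042 and -0.17. In bins of expression they were at -1.01, -1.12, 0.066 and 0.029. With a pseudocount of 5, mitosis and DNA replication were at -0.98 and OXPHOS at -0.16, and with a pseudocount of 0.1 DNA replication was at -1.35. OXPHOS was at -0.13 both at a mean of at least 5 FPKM and after correction for GC content and length. By their construction, the scalings without centring shift all genes by nearly the same amount.

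At this depth a gene near 1 FPKM rests on few fragments, and counting error alone is then large, as the interval for TET1 shows. No paired analysis was possible because each group has 1 library.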

Other observations

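Some groups not described above held genes past 2-fold. Among 1004 antisense RNAs by name, 251 were tested, of which 36 (14.3%) were higher and 11 (4.38%) lower, against 10.1% and 6.49% of all tested genes. Of the 36 higher ones 24 were below 1 FPKM in the control and passed the filter through SKOV3 TET1 alone. DICER1-AS1 was listed at 0 in the control and at 4.75 FPKM in SKOV3 TET1, and ITGB2-AS1 was lower (4.73 and 0.223 FPKM, relative log2 change -2.42), as was its neighbour ITGB2. Without strand information, reads of such pairs cannot be told apart. Of 443 zinc finger genes tested, 37 (8.35%) were higher and 8 (1.81%) lower, both below the shares of all tested genes. The highest were ZNF467 (0 and 4.27 FPKM, relative log2 change 2.21), ZNF516 (1.57 and 12.3 FPKM, relative log2 change 2.18) and ZNF22 (0.9 and 8.64 FPKM, relative log2 change 2.15). Of the 37 higher ones 12, with ZNF467 and ZNF22 among them, were below 1 FPKM in the control and passed through SKOV3 TET1 alone. Of the 8 lower ones 1 was below 1 FPKM in SKOV3 TET1. Host genes of small nucleolar RNAs were lower in 3 of 16, SNHG1 (135 and 57.4 FPKM, relative log2 change -1.41), SNHG6 (179 and 88.0 FPKM, relative log2 change -1.21) and SNHG8 (89.6 and 44.1 FPKM, relative log2 change -1.20).

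The S100 calcium-binding proteins held 4 lower genes among 12, of which S100A16 had the largest difference (515 and 198 FPKM, relative log2 change -1.57). The metallothionein MT2A was 1307 FPKM in the control against 652 FPKM in SKOV3 TET1 (relative log2 change -1.19). The drug exporter ABCC3 was 15 FPKM in the control against 67.8 FPKM in SKOV3 TET1 (relative log2 change 1.91), and ABCB1, the multidrug transporter, was at 0.09 FPKM in the control and 1.16 FPKM in SKOV3 TET1. ABCC3 was the 1 gene past 2-fold among 7 tested ABC transporters. The lysosomal glucosidase GAA was 22.6 FPKM in the control against 125 FPKM in SKOV3 TET1 (relative log2 change 2.23). It was the 1 higher gene (2.56%) of 39 tested lysosome and V-ATPase genes, of which 3 (7.69%) were lower, with a median of -0.47. Over all tested genes 10.1% were higher and 6.49% lower. A4GALT (6.09 and 21.2 FPKM, relative log2 change 1.46) and ST3GAL5 (0.2 and 4.07 FPKM, relative log2 change 1.89), enzymes of glycosphingolipid synthesis, were among 3 higher genes of 11 tested in that list (27.3%), whose median was 0.11. The histone genes HIST1H2AC (5.24 and 26.4 FPKM, relative log2 change 1.94), HIST1H4K (0.74 and 6.38 FPKM, relative log2 change 1.89) and HIST3H2A (14.7 and 52.99 FPKM, relative log2 change 1.59), whose main transcripts lack a poly(A) tail, were higher as well. They were 3 of 18 tested histone genes (16.7%), whose median was -0.02, and HIST1H4K passed the filter through SKOV3 TET1 alone. The clock gene BHLHE41 was 1.09 FPKM in the control against 8.27 FPKM in SKOV3 TET1 (relative log2 change 1.96), 1 of 2 higher genes among 14 tested clock genes (14.3%), whose median was 0.02.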
